A study of Homo sapiens with 18 samples.

Results

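This comparison sets K562 cells that carried dCas9-KRAB with the guide RNA (gRNA) CR10, aimed at the HS2 enhancer of the beta-globin locus, against K562 cells that carried dCas9-KRAB and no gRNA. It used 6 of the 18 RNA-seq libraries of the series, chosen by their titles: 3 with the gRNA (KRAB_CR10) and 3 without (KRAB_no_gRNA). K562 is a human erythroleukaemia cell line that transcribes embryonic and fetal globin genes. Both groups received a lentivirus with a puromycin resistance gene in 4 µg/ml polybrene, and 1 µg/ml puromycin was added from about 96 hours after transduction, so both carried the repressor, the virus and the selection and differed by the gRNA. A further 2 groups of 3 libraries are drawn on below: KRAB_CR4, with dCas9-KRAB and a different HS2 gRNA named CR4, and dCas9_CR10, with CR10 and a dCas9 that lacks the KRAB domain. The last 2 groups, dCas9_CR4 and untransduced cells, entered the estimate of the spread between libraries.

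HS2 is a DNase-hypersensitive element of the locus control region, which lies beyond the embryonic end of the beta-globin gene cluster on chromosome 11 and acts as a distal enhancer of the globin genes in erythroid cells. dCas9 is a Cas9 that binds DNA at the site a gRNA names without cutting it. KRAB is the repressor domain of the zinc finger protein ZNF10. It recruits TRIM28 and through it the histone methyltransferase SETDB1, and the methylated histones are bound by heterochromatin proteins such as CBX5. The beta-like genes of the cluster stand in the order in which they are used in development: HBE1 in the embryo, HBG2 and HBG1 in the fetus, HBD and HBB after birth, with the pseudogene HBBP1 between the fetal and adult genes. The comparison addresses which genes at the targeted locus, and which elsewhere, differ when the repressor is directed to HS2.

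The 6 libraries held 23968000 to 29173720 counts, and all counts were even numbers, as they would be if each fragment added 2. The labels do not say whether the libraries of a group came from separate cultures, so the p-values measure the spread between these libraries, which may be technical. Libraries numbered 3 stood apart in both groups: the deviations of KRAB_CR10 library 3 from its group mean correlated at r = 0.681 over 12604 genes with those of KRAB_no_gRNA library 3, and at -0.404 and -0.567 with those of libraries 1 and 2. Within a group the deviations of a gene cancel out by construction, so a positive r with any library requires a negative r with another. The genes are not independent either, and the r values are descriptions. Ribosomal RNA took 3.52%, 1.44% and 1.17% of the counts in the KRAB_CR10 libraries and 0.6%, 0.78% and 1.09% in the KRAB_no_gRNA libraries, so every KRAB_CR10 library lay above every library without gRNA. The erythroid factor GATA1, which marks the erythroid side of K562, was present in all 6 libraries, at 206 to 231 CPM with CR10 and 190 to 226 CPM without gRNA. RNA from the construct was not analysed here, and ZNF10, whose KRAB sequence it shares, read 5.83 to 8.42 CPM with the gRNA and 5.53 to 7.68 CPM without it.

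With CR10 the embryonic and fetal globin genes fell. Values are CPM, the share of a library's counts on a common scale, adjusted between libraries by TMM, in the order of libraries 1, 2 and 3. HBE1 (NM_005330), which encodes embryonic epsilon-globin, read 95.1, 86.4 and 73.3 CPM with CR10 and 437, 468 and 467 CPM without gRNA. The groups were far apart: the highest CR10 library held less than the lowest library without gRNA by several times the spread within either group. HBE1 fell 5.38-fold (95% interval 4.37 to 6.63), to 18.6% of its level without gRNA, from 457 ± 17.8 to 85.0 ± 11 CPM (SD, n = 3 and 3). The log2 fold change was -2.43 ± 0.14 (SE), with an edgeR quasi-likelihood adjusted p = 3e-08 after Benjamini-Hochberg adjustment over 14713 genes. These are bulk cultures, so fewer cells expressing the gene and less RNA per cell cannot be told apart.

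The fetal gamma-globin genes fell by less than HBE1 in fold. HBG2 (NM_000184) read 397, 359 and 297 CPM with CR10 and 902, 957 and 904 CPM without gRNA. HBG1 (NM_000559) read 397, 363 and 311 CPM with CR10 and 817, 871 and 821 CPM without gRNA. No library of one group reached the range of the other in either gene, and in each of the 3 called genes KRAB_CR10 library 3 held the lowest value. The log2 fold change of HBG2 was -1.39 ± 0.16 (edgeR adjusted p = 0.000659), a 2.62-fold fall. That of HBG1 was -1.23 ± 0.16 (edgeR adjusted p = 0.00279), a 2.34-fold fall. Because the sequences of this gene pair are almost the same, reads may have been divided between them in the counting. Their counts summed to 1 gene fell 2.48-fold, by 1.31 ± 0.16 on the log2 scale (edgeR adjusted p = 0.00138).

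These 3 were the only genes called at an adjusted p of 0.05 among the 14713 tested by edgeR's quasi-likelihood test across the 18 libraries (0.0204% of the genes tested, all lower, and 0% higher). Without a correction 219 genes had p under 0.05 (1.49%), 145 of them higher and 74 lower. With the library number as a block, described below, 1505 of 14599 genes had p under 0.05 (10.3%), 868 higher and 637 lower. The median log2 fold change over all tested genes was -0.02. Outside the globin clusters 12729 genes had a mean of at least 1 CPM in 1 of the 2 groups or both. Of these 95% lay between -0.35 and 0.47, with 37 beyond 1 in either direction, a count that leaves out the globin genes. DESeq2 called 4 genes (0.0272%), the same 3 globin genes and CA1, the only one higher (0.0068%).

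Each of the 3 globin calls held without any 1 of the 6 libraries. HBE1 ranged from -2.51 to -2.33, HBG2 from -1.48 to -1.28 and HBG1 from -1.30 to -1.14 on the log2 scale, and the largest edgeR adjusted p was 0.0398, for HBG1 without KRAB_CR10 library 3. Without KRAB_CR10 library 1, which held the most ribosomal RNA, the values were -2.51, -1.48 and -1.30. With the libraries numbered 3 left out in every lentiviral group they were -2.30, -1.28 and -1.13 (edgeR adjusted p = 1.38e-05, 0.00515 and 0.0138). The values were larger in size without KRAB_CR10 library 1 and smaller without the libraries numbered 3. The ribosomal RNA of the remaining CR10 libraries, at 1.44% and 1.17%, was still above that of every library without gRNA, and its part in the falls was not tested.

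**Figure D1:**
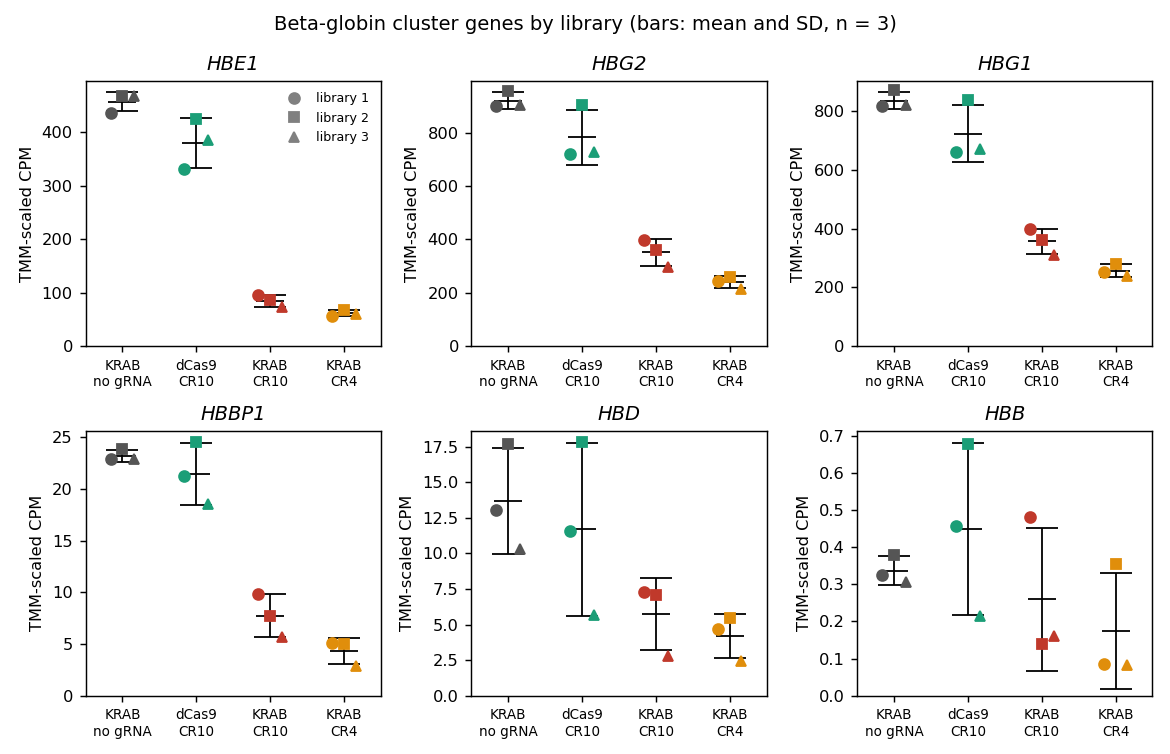
Level of each gene of the beta-globin cluster in TMM-scaled CPM (vertical axis, from 0), with 1 point per library (its shape gives the library number) for 4 groups along the horizontal axis and bars for the mean and SD of 3 libraries. HBE1, HBG2, HBG1, HBBP1 and HBD lay lower in every KRAB_CR10 library than in every KRAB_no_gRNA library, from 73.3 to 95.1 against 437 to 468 CPM in HBE1, while HBB stayed under 1 CPM in both groups.

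The library numbers were also used as pairs, since deviations from the group means correlated above 0.1 for every same-numbered pair (r = 0.401, 0.409 and 0.681). Differently numbered libraries passed that cut too: KRAB_CR10 library 1 with KRAB_no_gRNA library 2 (r = 0.381), and KRAB_CR10 library 2 with KRAB_no_gRNA library 1 (r = 0.145). Because the deviations in a group cancel out by construction, these r values are not separate pieces of evidence. They set the libraries numbered 3 apart but do not settle how libraries 1 and 2 pair. With the number as a block, fitted on the 15 lentiviral libraries, edgeR called 7 of 14599 genes (0.0479%), 5 lower (0.0342%) and 2 higher (0.0137%). The 5 lower genes were all of the cluster: HBE1, HBG2 and HBG1 again, and HBBP1 and HBD. The block was not the only change, since the untransduced libraries were left out as well. With the block in all 18 libraries edgeR called HBE1, HBG2 and HBG1 alone, and the adjusted p of HBBP1, HBD, SKIL and ACSM3 was 0.998. The falls pointed one way in every numbered pair: HBE1 differed by -2.20, -2.44 and -2.67 on the log2 scale in pairs 1, 2 and 3, HBG2 by -1.18, -1.41 and -1.60, and HBG1 by -1.04, -1.26 and -1.40. The third pair gave the largest fall in each gene.

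HBBP1 (NR_001589), a beta-like pseudogene between the fetal and adult genes, read 9.85, 7.73 and 5.67 CPM with CR10 and 22.9, 23.9 and 22.9 CPM without gRNA. The 3 libraries without gRNA were nearly level, and all lay more than 2 times above the highest CR10 library. Its log2 fold change was -1.58 with a 95% interval from -2.55 to -0.61, and edgeR's adjusted p was 0.999 in the 18 libraries without the block (unadjusted p = 0.0024) and 2.14e-06 in the 15 lentiviral libraries with it. HBBP1 ranged from 5.77 to 42.4 CPM in the 3 untransduced libraries, which enter the spread of the fit without the block. With the 15 lentiviral libraries alone and no block the gene was called too (edgeR adjusted p = 0.0134). In the blocked fit it was called without any 1 of the 6 libraries, from -1.78 to -1.44 on the log2 scale.

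HBD (NM_000519), which encodes the delta-globin of the minor adult haemoglobin, read 7.29, 7.11 and 2.79 CPM with CR10 and 13.1, 17.7 and 10.3 CPM without gRNA. The groups did not overlap, though library 3 was the lowest of each. The log2 fold change was -1.25 with a 95% interval from -2.47 to -0.04, and the edgeR adjusted p was 0.999 in the 18 libraries without the block and 0.000524 in the 15 lentiviral libraries with it. In the blocked fit HBD was called without any 1 of the 6 libraries, from -1.49 to -1.09. With the block in only the 2 groups it was not called (edgeR adjusted p = 0.0645).

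HBD is shown here as a promoter of the cluster because the targeted enhancer acts on such promoters from a distance. It was 1 of 2 of the 7 called genes matched by symbol in the RefSeq promoter table (the other was SKIL). The 250 bases before its start, read 5′ to 3′ on the minus strand, are chr11:5234484-5234733 in GRCh38.p14. Capitals mark matches to 3 short promoter motifs, each of which was searched for on both strands. In order along the sequence, the first is a match to CCAAT, a motif bound by factors such as NF-Y. Then comes a match on the other strand to GATAA, the motif of the erythroid GATA factors. Last is ATAAAA, which resembles a TATA box and lies where such boxes are usually found, shortly before the start. Between the GATAA and ATAAAA matches stands CCAAC, which differs from CCAAT in its last letter and is not marked. Whether any of these sites is bound was not tested.
HBD promoter: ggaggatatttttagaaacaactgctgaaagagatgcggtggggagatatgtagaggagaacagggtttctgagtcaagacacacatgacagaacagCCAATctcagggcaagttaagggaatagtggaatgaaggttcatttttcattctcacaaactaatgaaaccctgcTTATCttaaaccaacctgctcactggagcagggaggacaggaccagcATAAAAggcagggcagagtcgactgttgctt
The first of these matches began 153 bases before the start, the second 78 bases and the third 31 bases. Among 35116 promoters of the same length, 32.0% held the first motif on either strand, 20.4% the second and 14.8% the third. CACCC, the box bound by KLF factors and present in 54.7% of promoters, was not among the letters of this window.

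HBB, the adult beta-globin gene, was close to undetected. It read 0.481, 0.138 and 0.16 CPM with CR10 and 0.324, 0.38 and 0.307 CPM without gRNA, from at most 10 counts without gRNA. The groups overlapped and the interval of the log2 fold change, from -1.82 to 1.04, spanned falls as large as that of HBG2 and a rise, so a change in HBB was not detectable at this depth.

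The makeup of the beta-like RNA shifted along with its amount. CPM are not divided by transcript length, so the shares that follow compare libraries, not the amounts of different genes. HBE1 made up 10.7%, 10.7% and 10.8% of the summed HBE1, HBG1 and HBG2 values with CR10, and 20.3%, 20.4% and 21.3% without gRNA. The spread within each group was under 1 percentage point, and the groups were about 10 points apart. HBG2 made up 50%, 49.7% and 48.9% of the gamma-globin values with CR10 and 52.5%, 52.3% and 52.4% without gRNA, a small difference that also did not overlap. Since the counting may have divided reads between HBG2 and HBG1, this share may not follow the RNA of each gene. For the HBE1 share and the HBG2 share alike the exact two-sided permutation p was 0.1, the smallest that 3 libraries against 3 can give (20 splits).

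Summed over its 6 genes, the beta-globin cluster gave 690 to 907 CPM with CR10 and 2190 to 2340 CPM without gRNA. It made up 0.0812% ± 0.00872 of all counts with CR10 and 0.226% ± 0.00794 without gRNA (SD, n = 3 and 3). The summed alpha-like genes, in contrast, gave 1110 ± 150 and 992 ± 194 CPM (exact permutation p = 0.4). The log2 ratio of alpha-like to beta-like values was 0.48, 0.39 and 0.50 with CR10 and -1.25, -0.96 and -1.40 without gRNA. Every CR10 library thus held more alpha-like than beta-like counts, and every library without gRNA the reverse (exact permutation p = 0.1, the smallest possible).

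**Figure D2:**
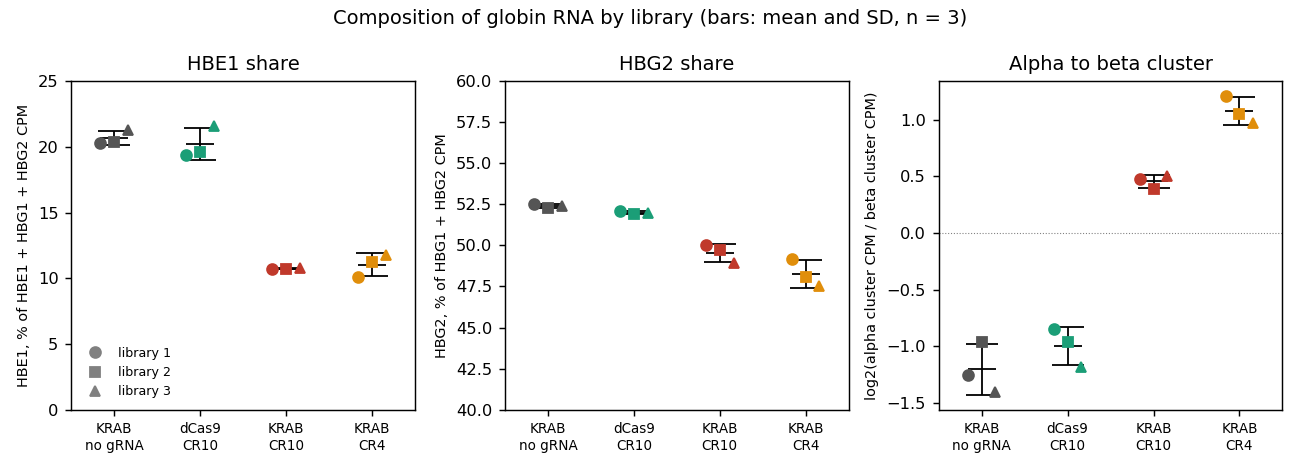
Makeup of the globin RNA per library for 4 groups along the horizontal axis, with point shapes for library numbers and bars for the mean and SD of 3 libraries: the share of HBE1 in HBE1 and gamma-globin values (percent), the share of HBG2 in gamma-globin values (percent) and the log2 ratio of alpha-like to beta-like values. The KRAB_CR10 libraries lie at 10.7% to 10.8% for HBE1 against 20.3% to 21.3% in KRAB_no_gRNA, and the log2 ratio is above 0 in the former and below 0 in the latter.

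The same CR10 libraries were also set against dCas9_CR10, which shares the gRNA, lacks the repressor domain and has no library in common with the KRAB_no_gRNA control. HBE1 read 332 to 425 CPM there, HBG2 720 to 903 CPM and HBG1 662 to 837 CPM, all above the range of KRAB_CR10. For HBE1 this range also lay below all KRAB_no_gRNA libraries (437 to 468 CPM), while those of HBG2 and HBG1 overlapped that group. The difference of dCas9_CR10 from KRAB_no_gRNA was not tested here. The log2 difference of KRAB_CR10 from dCas9_CR10 was -2.17 for HBE1, -1.16 for HBG2 and -1.02 for HBG1 (edgeR adjusted p = 1.66e-07, 0.0076 and 0.0293). No other gene was called (3 of 14713, 0.0204%). The HBG1 call was lost without any 1 of KRAB_CR10 libraries 1, 2 and 3 or of dCas9_CR10 libraries 2 and 3, and the HBG2 call without KRAB_CR10 library 2 or 3 or dCas9_CR10 library 2. With the block 7 genes were called (0.0479%), among them HBBP1 at -1.47 (edgeR adjusted p = 8.42e-06) and HBD at -1.02 (edgeR adjusted p = 0.0212). The share of HBE1 in dCas9_CR10 was 19.4%, 19.6% and 21.6%, on either side of the 20.3% to 21.3% without gRNA and above all KRAB_CR10 libraries.

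Against KRAB_CR4, the repressor with the other gRNA, the beta-like genes of KRAB_CR10 were higher in value but no gene was called. The CR4 libraries held 55.8 to 68.1 CPM of HBE1, 215 to 259 CPM of HBG2 and 237 to 279 CPM of HBG1, each below all 3 CR10 libraries. The log2 difference of CR10 from CR4 was 0.46 for HBE1 (95% interval 0.18 to 0.75, unadjusted p = 0.00262), 0.55 for HBG2 (0.21 to 0.89, unadjusted p = 0.00249) and 0.48 for HBG1 (0.13 to 0.82, unadjusted p = 0.00764). No adjusted p passed among 14713 genes in edgeR's quasi-likelihood test without the block (0%) or with it (0%), where HBG2 had the adjusted p = 0.122 and HBE1 0.382. No gene was called in any other edgeR or DESeq2 setting run, and 132 genes had an unadjusted p under 0.05. The makeup of the RNA was alike in value: HBE1 made up 10.1%, 11.2% and 11.8% of HBE1 and gamma-globin values with CR4.

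The alpha-like genes on chromosome 16, which supply the partner chains of every haemoglobin and lie outside the targeted locus, did not pass the test. HBZ, the embryonic zeta-globin gene, read 352, 263 and 229 CPM with CR10 and 231, 309 and 168 CPM without gRNA. Its log2 fold change was 0.25 (95% interval -0.41 to 0.92). HBA2 read 422, 373 and 340 CPM against 315, 419 and 299 CPM, with an interval from -0.33 to 0.60. HBA1, its near-identical copy, read 481, 438 and 395 CPM against 368, 465 and 361 CPM, with an interval from -0.29 to 0.57. The groups overlapped in all of these genes, and the intervals leave out a fall of the size seen in HBG1. HBQ1, the theta-globin gene, ranged from 7.45 to 11.2 CPM and from 9.0 to 12.3 CPM, and HBM was too low to be tested. The list's median log2 fold change was 0.14 over 4 tested genes, against -0.02 over all genes tested.

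The genes that flank the beta-globin cluster did not share its fall. Among the 10 tested genes nearest on each side in gene order, none was called, the median log2 fold change was 0.05 and the values ran from -0.46 to 2.63. Many of these genes encode olfactory receptors, the odour sensors of the nose. The value of 2.63 belonged to one of them, OR51Q1, at 0.481, 0.414 and 0.638 CPM with CR10 and 0.162, 0 and 0.0768 CPM without gRNA. Those values rest on at most 4 counts per library without gRNA, and edgeR's adjusted p was 0.999. Among expressed neighbours RRM1, a subunit of ribonucleotide reductase, differed by -0.12, STIM1, a calcium sensor of the endoplasmic reticulum, by -0.08 and TRIM5, a restriction factor, by 0.39 on the log2 scale, and none was called. Groups did not overlap in 1 of the 20 genes upward (all genes 4.13%) and in 1 downward (all genes 4.74%), the latter PGAP2 at -0.18.

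Over 50 genes on each side the median was -0.05 with none of 100 called, and over the 801 tested genes of chromosome 11 outside the cluster it was -0.04, again with none called and 9 at an unadjusted p under 0.05 (all genes 1.49%). Among the 100 genes 3 lay above and 9 below without overlap (all genes 4.13% and 4.74%). BGLT3, the noncoding gene inside the cluster, was not tested. The 20 nearest tested genes are not the 20 nearest genes: 112 other genes of the RefSeq table lie among them.

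**Figure D3:**
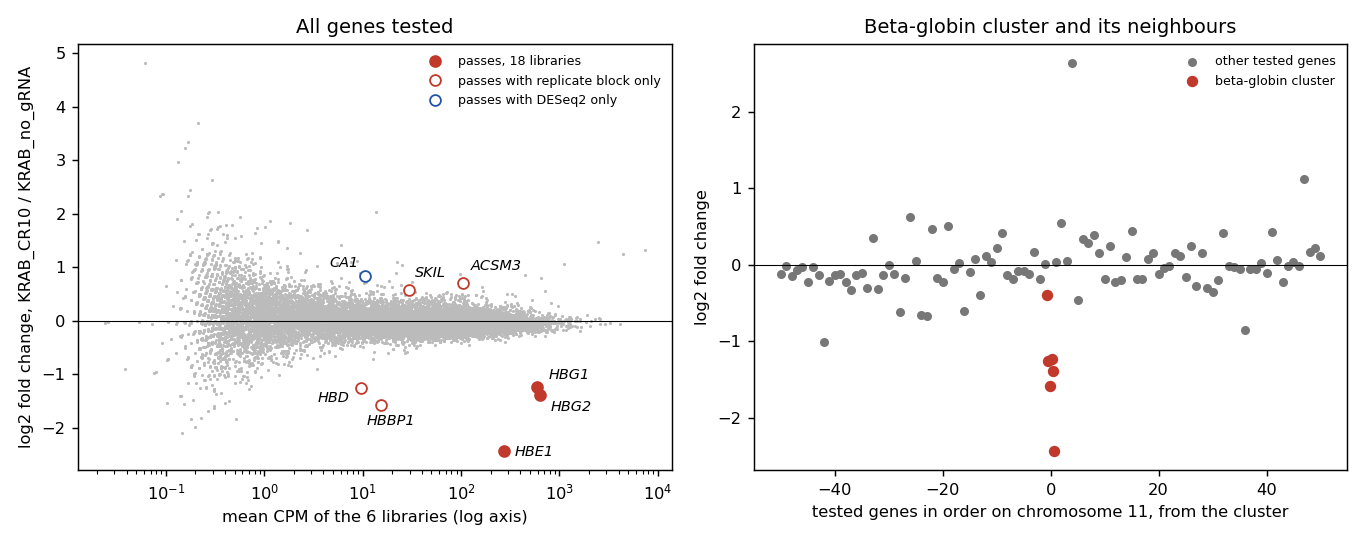
Left, log2 fold change of KRAB_CR10 over KRAB_no_gRNA (vertical axis) against mean CPM of the 6 libraries (log axis) for all genes tested, with the called genes named (open symbols passed with the block or with DESeq2 only); right, the same log2 fold change for the cluster and the tested genes on each side in gene order. HBE1, HBG2 and HBG1 lie below the cloud of well expressed genes at -2.43, -1.39 and -1.23, and the genes beside the cluster scatter about 0 with OR51Q1 at 2.63.

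Outside the globin cluster 2 genes rose in the blocked fit. SKIL, which encodes SnoN, a negative regulator of SMAD signalling, read 39.7, 34.2 and 33.6 CPM with CR10 and 24.2, 23.9 and 23.6 CPM without gRNA. The groups did not overlap, and the libraries without gRNA were level. The log2 fold change was 0.60 ± 0.11 with the block (edgeR adjusted p = 0.0411) and 0.58 ± 0.18 without it (adjusted p = 0.999). All 4 of its RefSeq transcripts were higher without overlap, by 0.56 to 0.62 on the log2 scale. Their means were nearly equal, at 8.42 to 9.61 CPM with CR10. The counting may have divided shared reads among them, so the transcripts are not separate measurements. The call was lost when any 1 of the 6 libraries was left out of the blocked fit (adjusted p from 0.0545 to 0.475). SKIL read 32.5 to 35.1 CPM in dCas9_CR10, 0.09 below KRAB_CR10 on the log2 scale (95% interval -0.30 to 0.48), and 29.4 to 35.4 CPM in KRAB_CR4. The KRAB_no_gRNA libraries were thus the lowest of these 4 groups.

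ACSM3, a mitochondrial medium-chain acyl-CoA synthetase, read 83.8, 91.2 and 216 CPM with CR10 and 63.2, 49.6 and 127 CPM without gRNA. The groups overlapped because library 3 of each was the highest, and within each numbered pair the CR10 library was higher, by 0.41, 0.88 and 0.77 on the log2 scale. Its log2 fold change was 0.70 ± 0.12 with the block (edgeR adjusted p = 0.0271) and 0.70 ± 0.62 without it (adjusted p = 0.999). In the blocked fit the call held without KRAB_CR10 library 3 and without KRAB_no_gRNA library 1, and was lost without any of the other 4 libraries, with the adjusted p up to 0.425. Against dCas9_CR10 the blocked fit gave the adjusted p = 3.6e-05, and ACSM3 read 33.0 to 129 CPM in that group. In untransduced cells it ran from 99.4 to 394 CPM, so the spread between libraries of 1 group exceeded the difference between the groups.

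CA1 encodes the cytosolic carbonic anhydrase of red cells. In the fit of 18 libraries without the block it had the smallest p outside the globin clusters among genes with a mean of at least 1 CPM. It read 13.7, 13.6 and 13.6 CPM with CR10 and 6.0, 9.65 and 7.14 CPM without gRNA. The CR10 libraries were level and all above the others. Each of its 5 transcripts was higher without overlap, by 0.73 to 1.08 on the log2 scale. Here too the transcripts had similar means (2.37 to 3.01 CPM with CR10) and may share reads, so they are not separate measurements. The log2 fold change was 0.84 (95% interval 0.44 to 1.24, unadjusted p = 0.000279), and the edgeR adjusted p was 0.999 without the block and 0.053 with it. DESeq2 called it (adjusted p = 0.0174). The blocked fit called it without KRAB_no_gRNA library 2 (adjusted p = 0.00402), the highest library of its group. CA1 was 0.57 higher in KRAB_CR10 than in dCas9_CR10 on the log2 scale (unadjusted p = 0.00656, not called by edgeR). It read 11.1 to 14.5 CPM in KRAB_CR4, 8.55 to 10.0 CPM in dCas9_CR10 and 5.64 to 7.1 CPM in untransduced cells.

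**Figure D4:**
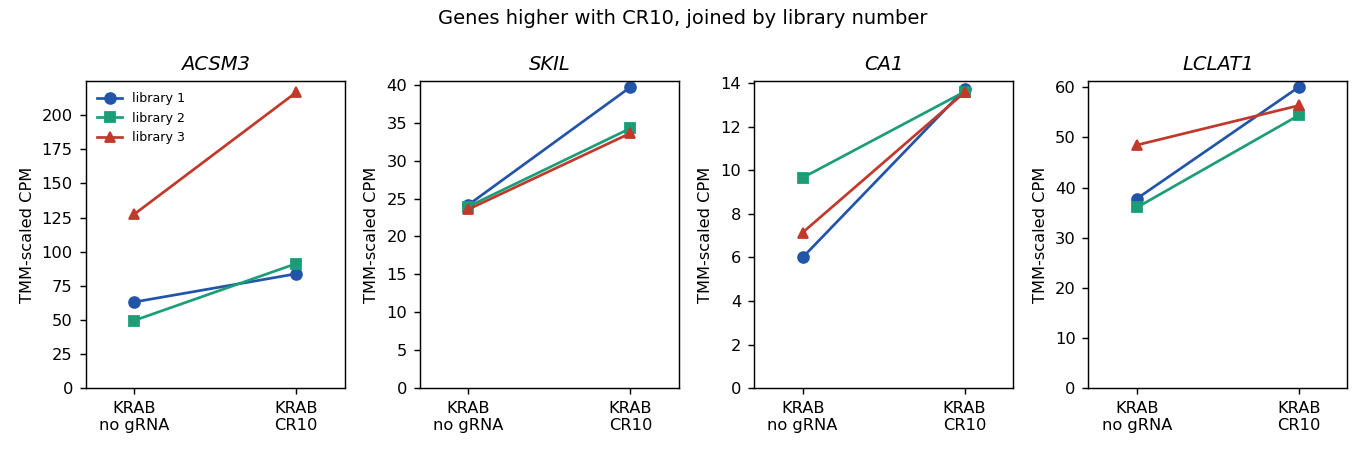
Level in TMM-scaled CPM (vertical axis, from 0) of ACSM3, SKIL, CA1 and LCLAT1 in the KRAB_no_gRNA and KRAB_CR10 libraries, with a line joining the libraries of the same number. Every line rises, and in ACSM3 library 3 lies far above the others in both groups (127 and 216 CPM).

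Besides CA1 and SKIL, the 10 smallest p upward outside the globin clusters belonged to 8 genes not called in either edgeR fit. LCLAT1, an acyltransferase that remodels cardiolipin and phosphatidylinositol, had the log2 fold change 0.48, and the blocked fit called it without KRAB_no_gRNA library 3 only (adjusted p = 0.0461). LCLAT1 read 54.4 to 60 CPM with CR10, 36 to 48.5 CPM without gRNA and 49.1 to 57.6 CPM in dCas9_CR10. GATAD2B, a subunit of the NuRD chromatin complex (0.51), the polarity gene PARD6B (0.51), the tonicity factor NFAT5 (0.50), the checkpoint mediator CLSPN (0.62), the zinc finger gene ZNF557 (0.56), the long noncoding RNA GRASLND (0.97) and the histone H4 gene H4C5 (1.82) made up the rest. The edgeR adjusted p of each was 0.999 without the block and between 0.119 and 0.273 with it. None of these genes overlapped between groups, as did 607 genes upward over all genes tested (4.13%).

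Outside the globin clusters, none of the 10 genes of smallest p downward was called. SLX1B and SLX1A, near-identical copies of a structure-specific endonuclease subunit whose reads the counting may have divided, had log2 fold changes of -0.71 and -0.59. DLK1, a Notch-related membrane protein of fetal tissues, read 14.2, 17.2 and 18.6 CPM with CR10 and 24.9, 21.0 and 25.8 CPM without gRNA (-0.52). NAGLU, a lysosomal enzyme of heparan sulphate breakdown, read 17.5, 16 and 16 CPM against 26.9, 22.1 and 22.4 CPM (-0.53). The others were GAREM2 (-0.40), the tyrosine kinase gene BMX (-0.91), ASB13 (-0.32), the surface glycoprotein gene CD99 (-0.39), the pseudogene TPTEP2 (-1.22) and ZNF837 (-0.92). All 10 had an edgeR adjusted p of 0.999 and groups that did not overlap, as had 697 genes downward over all genes tested (4.74%).

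Lists of genes for the erythroid programme and for the machinery the construct uses had medians from -0.03 to 0.01. In the lists that follow no member was called without the block, and counts at an unadjusted p under 0.05 are given against 0.986% of all genes upward and 0.503% downward. The 10 erythroid identity genes had a median log2 fold change of 0.00, with 1 member upward, ALAS2, the erythroid enzyme of the first step of haem synthesis, at 33.8, 32.6 and 27.2 CPM with CR10 and 24.9, 26.9 and 21.7 CPM without gRNA (0.35, unadjusted p = 0.0298). LYL1, a basic helix-loop-helix factor, was lower without overlap (-0.21). The 20 factors known to bind HS2 or the chromatin there had a median of 0.00 and no member at that p, with MAFK, a small Maf subunit of NF-E2, at -0.28. Of 26 regulators of the switch from fetal to adult globin 23 were tested, with a median of 0.01. NFIA differed by 0.44 (unadjusted p = 0.0448) and the histone demethylase KDM1A by -0.19, and BCL11A, the best known repressor of the gamma-globin genes, had 0 counts in all 6 libraries.

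The 27 genes of the KRAB co-repressor list had a median of -0.02 and no member at an unadjusted p under 0.05. CBX5 differed by 0.30 without overlap, MPHOSPH8, a reader of methylated histone H3 in the HUSH complex, by 0.42, the methyltransferase SUV39H1 by -0.20 and SETDB1 by -0.15. Haem synthesis (16 of 17 members tested) had a median of -0.02, with ALAD, its second enzyme, at -0.22 without overlap. Iron transport and storage (14 of 14) had a median of -0.03, with the mitochondrial iron carriers SLC25A28 at -0.32 and SLC25A37 at 0.26. In the red cell membrane and blood group list (24 of 25 tested, median 0.01) 3 members had p under 0.05 upward (6 with the block, against 5.95% of all genes): the Rh genes RHD (0.40) and RHCE (0.42), which are close copies, and EPB42 (0.39), which encodes a protein that anchors the membrane skeleton. DMTN, a gene of the same skeleton, was the fourth to lie above without overlap (0.40, all genes 4.13%). The 3 genes were at 15.9 to 20.4, 11.7 to 15.7 and 4.16 to 6.01 CPM in dCas9_CR10, ranges that overlap those of KRAB_CR10.

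**Figure D5:**
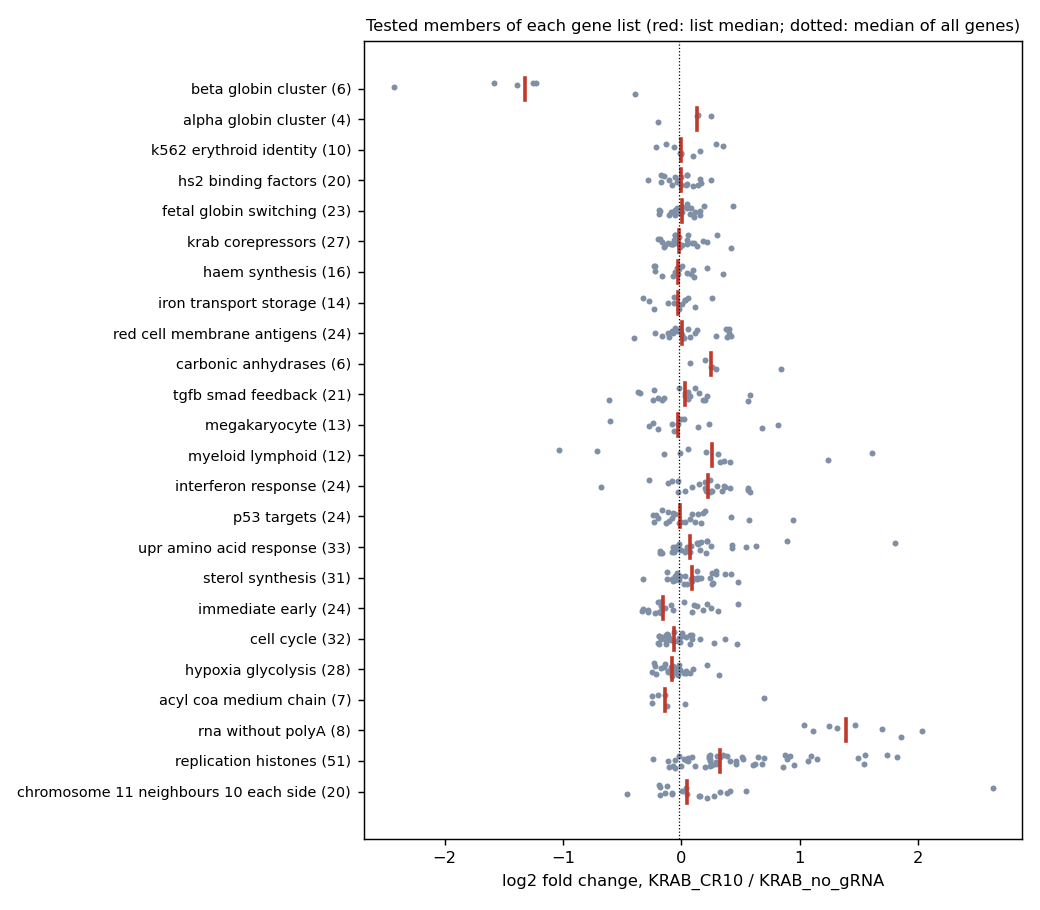
Log2 fold change of KRAB_CR10 over KRAB_no_gRNA (horizontal axis) for each tested member of each gene list (rows), with the list median in red and the median of all genes dotted. The beta-globin cluster has a median of -1.32, the RNAs without poly(A) 1.40, and the other lists lie between -0.16 and 0.33.

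Lists for stress and growth had medians between -0.16 and 0.23 and no called member: interferon response 0.23 (24 of 37 tested), p53 targets -0.01 (24 of 25), unfolded protein and amino acid response 0.07 (33 of 35), immediate early genes -0.16 (24 of 32), cell cycle -0.06 (32 of 33) and hypoxia and glycolysis -0.08 (28 of 30). MKI67, the proliferation marker, differed by 0.47 with overlap. In sterol synthesis (31 of 33 tested, median 0.09) the blocked fit had 9 members upward and 1 downward at an unadjusted p under 0.05 (all genes 5.95% and 4.36%), and none was called. CYP51A1, the sterol demethylase, had the smallest p without the block, at 191, 202 and 225 CPM with CR10 and 138, 138 and 185 CPM without gRNA (0.42, blocked edgeR adjusted p = 0.148). In the list of TGF-beta and SMAD feedback genes (21 of 24 tested, median 0.03) SKIL was the only call, and in that of medium-chain acyl-CoA genes (7 of 11, median -0.14) ACSM3.

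No marker of other blood lineages was called in either edgeR fit. The summed megakaryocyte list gave 436 to 443 CPM with CR10 and 447 to 469 CPM without gRNA (13 of 18 tested, median -0.03), lower in every CR10 library. Its largest members were NFE2, also on the erythroid list, and RUNX1, at means of 220 and 98.4 CPM with CR10, so the sum does not measure that lineage alone. GP9, PF4 and SELP had 0 counts. The summed myeloid and lymphoid list gave 114 to 148 CPM and 90.2 to 123 CPM (12 of 24 tested, median 0.26), with ELANE and MS4A1 at 0 counts and 13 members at no more than 10 counts. Most of that sum was PTPRC, the leukocyte phosphatase CD45, at 89.8, 83.3 and 99.1 CPM with CR10 and 82.9, 64.6 and 71.7 CPM without gRNA. It was higher with CR10 without overlap but not called (0.31, edgeR adjusted p = 0.999).

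RNAs that carry no poly(A) tail were higher in value with CR10. This list of 8 was chosen after its values were seen: the ribosomal RNA transcripts, RN7SK, RN7SL1, RN7SL2, RMRP and RPPH1. All 8 had a positive log2 fold change (median 1.40, from 1.04 to 2.03), and 5 did not overlap (all genes 8.86% in either direction). The sum over the list, in which shared reads may be repeated, was 11300 to 35800 CPM with CR10 and 6060 to 10500 CPM without gRNA. RN7SL1, the RNA of the signal recognition particle, read 37.4, 23.5 and 30.3 CPM with CR10 and 14.6, 13.9 and 13.8 CPM without gRNA. Neither it nor RN7SL2 was called in the edgeR fit of 18 libraries (adjusted p = 0.999 for each); in a blocked fit of the 2 groups alone both were called. The replication-dependent histone genes, whose mRNAs also lack the tail, had a median of 0.33 over 51 of 69 tested. At an unadjusted edgeR p under 0.05 there were 10 upward, H4C5 among them, and 0 downward (all genes 0.986% and 0.503%). Their summed values overlapped, at 1030 to 1180 CPM with CR10 and 957 to 1110 CPM without gRNA. H2BC12 and H1-2, the most abundant members, differed by 0.02 and 0.06.

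Gene GC content moved with the comparison too. With genes ranked by transcript GC and cut into 4 equal bins, from low to high GC, the median log2 fold change was 0.06, 0.01, -0.06 and -0.12. The bins held the 92.1% that matched of the genes outside the globin clusters with at least 1 CPM. The part of these RNAs and of GC content in the differences of the globin genes, SKIL, CA1, ACSM3, LCLAT1 and the list members above was not tested.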

How the data were processed

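Poly(A) RNA of K562 cultures had been purified on oligo-dT beads and made into Nextera libraries, which do not mark strand, per the labels' protocols. The authors deposited raw counts per RefSeq transcript (40709 per library). Per the submitters' processing notes the genome build was hg19 and the tools included Bowtie2, DESeq, Picard, SAMtools and R 3.1.2; their roles and the counting tool are not given in the sources used here. All counts were even, so each fragment was taken as counted for both mates. A gene and its antisense partner cannot be told apart. The 18 libraries held 22805964 to 34032962 counts.

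Counts were summed to 24395 genes by RefSeq (39324 accessions) or GENCODE (517), and 868 unmatched accessions kept their own name. With R 4.3.3 and edgeR 4.0.16, filterByExpr kept 14713 genes (99.97% of counts), scaled by TMM and tested by quasi-likelihood in 1 fit of 6 group means over 18 libraries, with Benjamini-Hochberg adjustment, a threshold of 0.05 and a biological coefficient of variation of 21.6%. The 95% intervals use 12 residual degrees of freedom. The same test on the 15 lentiviral libraries with the replicate number as a block, halved counts, other filters and scalings, subsets of libraries and DESeq2 1.42.0 were alternatives. The labels do not say what a replicate number marks. Pairing rests on the correlations of 0.401, 0.409 and 0.681 over 12604 genes, and differently numbered pairs ran from -0.567 to 0.381. The unblocked edgeR fit and DESeq2 were tested on simulated data, with a smaller spread than in these libraries and no effect of the library number. The blocked fit was not tested in this way. GC content came from GRCh38 models.

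Named were the globin genes and ZNF10, every gene called in either edgeR fit, the 10 rises and 10 falls of smallest p with a mean of at least 1 CPM, up to 4 members per list and the 10 tested neighbours on each side of the cluster. Members and lists were chosen with earlier results of these data known, and the leave-one-out fits with the block, the RNAs without poly(A) and the histone list were added after seeing the data. The sequence of the gRNA was not used here.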

Additional observations from a re-analysis of the deposited data

How the results depend on the processing

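Against KRAB_no_gRNA, 3 genes were called (0 higher, 3 lower) with either scaling, with halved counts, with another filter or none, without the block in the 2 groups alone, with the block in all 18 libraries and without any 1 library (3 to 3). The 15 lentiviral libraries without the block, and libraries numbered 1 and 2 alone, gave 4. DESeq2 gave 4, 1 of them higher. The replicate block, which reads same-numbered libraries as pairs, gave 7 on the 15 lentiviral libraries (2 higher, 5 lower) and 7 on the 2 groups (3 higher). Leaving out 1 library with the block, added after seeing the data, gave 5 to 9 in all, 0 to 4 higher and 5 to 5 lower. The smallest counts came without KRAB_CR10 library 1 or 2, the 9 without KRAB_CR10 library 3 or KRAB_no_gRNA library 3, and 6 came without KRAB_no_gRNA library 1 or 2. Libraries numbered 1 and 2 alone with the block, also added, gave 29 (24 higher, 5 lower, the latter the same 5 cluster genes). The cause was not tested. In these leave-one-out fits HBB ran from -1.21 to 0.20 and HBQ1 from -0.42 to 0.01, changing sign without KRAB_CR10 library 2. Against dCas9_CR10, 3 genes became 5 with the lentiviral libraries, 7 with the block (2 higher, 5 lower, also in the 2 groups alone), 1 with the 2 groups unblocked and 1 to 3 without 1 library (1 to 3 lower), the 1 being HBE1. There 1 higher was called with DESeq2, no filter, halved counts, the 15 lentiviral libraries and libraries numbered 1 and 2. Against KRAB_CR4 the count was 0 throughout. HBB, HBM and OR51Q1 rest on few counts per library, which limits what can be said of them. Correlated deviations do not show that cultures were shared.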

Other observations

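With the block, KRAB_CR10 against dCas9_CR10 gave 7 calls: the 5 genes HBE1, HBG2, HBG1, HBBP1 and HBD lower, and ACSM3 and PCSK1N higher. PCSK1N, a neuropeptide precursor, was named here after its values were seen. Against KRAB_no_gRNA, the comparison of the values that follow, PCSK1N was not called in either edgeR fit. It had a mean of 2.48 CPM with CR10 and 0.962 CPM without gRNA (log2 fold change 1.36, edgeR adjusted p = 0.999 without the block and 0.262 with it). MALAT1, a long nuclear noncoding RNA also named after its values were seen, had means of 1500 and 716 CPM in these groups, with an edgeR adjusted p of 0.999 without the block and 0.262 with it. It was among the 24 genes called higher in the blocked fit of libraries numbered 1 and 2.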
